A study of Mus musculus with 15 samples.

Results

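The interaction of Brg1 loss and Apc loss in mouse jejunum was measured on 15 of 15 bead arrays in 4 genotype groups. For each gene it is the difference between the Brg1-Apc deficient and the Apc deficient group, less the difference between the Brg1 deficient group and control, on the deposited log2 scale. A value of 0 means that Brg1 loss changed the gene by the same factor with and without Apc, and equally that Apc loss changed it by the same factor with and without Brg1. Of 16592 measured genes, 177 passed the test of this quantity, which is limma's moderated test over all 15 arrays with a Benjamini-Hochberg adjusted p under 0.05. That is 1.07% of the genes, and the genes described in the following are those 177 and the members of named gene lists.

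Controls (n = 4) were labelled VillinCreERT2- and carried no Cre recombinase, and whether they carried floxed alleles is not given in the labels. Brg1 deficient mice (n = 4) were VillinCreERT2+ Brg1fl/fl. Apc deficient mice (n = 3) were VillinCreERT2+ Apcfl/fl Brg1+/+, and Brg1-Apc deficient mice (n = 4) were VillinCreERT2+ Apcfl/fl Brg1fl/fl. The villin promoter drives the tamoxifen-activated Cre in the gut epithelium. All groups, controls included, received 4 daily injections of 80 mg/kg tamoxifen, and jejunal epithelium was scraped from the muscle wall on day 4. The ages of the mice are not given in the labels. Because Cre was present in every group except control, an effect of Cre itself does not cancel in the interaction and cannot be told apart from it. In scraped tissue, fewer cells of a type and less RNA per cell cannot be told apart either.

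Brg1, encoded by Smarca4, is a catalytic ATPase of the SWI/SNF complexes, which slide and evict nucleosomes and so open or close regulatory DNA. Apc is the scaffold on which beta-catenin is phosphorylated and sent for degradation. Without Apc, beta-catenin enters the nucleus with TCF/LEF factors and switches on Wnt target genes, crypt cells keep dividing, and maturation into absorptive enterocytes is held back. The comparison asks which of the responses to Apc loss depend on Brg1, and the reverse.

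Smarca4 itself read 7.35 to 7.73 on the 4 control arrays and 6.03 to 6.36 on the 4 Brg1 deficient arrays. The 3 Apc deficient arrays read 7.88 to 8.40, and the 4 Brg1-Apc deficient arrays 6.04 to 6.16. All 8 arrays labelled Brg1fl/fl therefore lay below all 7 others. The difference with Brg1 loss was -1.36 where Apc was intact and -2.07 where it was missing, and the interaction of Smarca4, -0.71 (SE 0.24), did not pass (adjusted p = 0.227). The Apc probe did not separate the groups, with an interaction of -0.54 (SE 0.64, adjusted p = 0.857), and no source used here gives its place relative to the deleted part of the gene. Array medians lay between 5.59 and 5.90, and the highest of them, 5.90, is used here as the background level. The values of Brg1 deficient replicate 4 were compressed, since its quartiles lay 1.23 apart and those of the remaining 14 arrays 1.89 to 2.56. The arrays lie on 2 slides, and the Apc deficient group has a single array on the second of them.

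The interaction was positive for 132 genes, which is 0.796% of the 16592, and negative for 45, which is 0.271%. Over the 132 the median was 1.96 on the log2 scale (range 1.06 to 4.62, SE of single genes 0.24 to 0.91), and over the 45 it was -1.80 (range -3.74 to -1.13, SE 0.26 to 0.64). Every one of the 177 differed by more than 2-fold from what the separate losses would add up to, and 81 by more than 4-fold. Passing the test itself selects large values, so these counts describe the chosen genes. For 46 of the 132 positive and 2 of the 45 negative genes the added-up level lay at or below background. Their folds are against levels that the arrays could not read. The probes past the test numbered 225 of 25695, or 0.876%, of which 13 have no gene symbol here. An unadjusted p under 0.05 was reached by 2783 probes, where chance alone gives about 5% of the 25695.

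The plot of the response to Apc loss with and without Brg1 shows where these genes lie. Apc loss on its own changed 15.2% of all genes, and Apc loss on top of Brg1 loss changed 6.47% (5.53% up and 0.946% down). Brg1 loss on its own changed 3.31% (0.82% up and 2.5% down), and Brg1 loss on top of Apc loss changed 7.81% (3.92% up and 3.89% down). Of the 132 positive genes, 127 fell with Apc loss where Brg1 was intact, and 11 fell with Apc loss where Brg1 was missing. Their median change with Apc loss was -2.37 with Brg1 and -0.22 without it. Of the 45 negative genes, 41 rose with Apc loss where Brg1 was intact, and for 30 of those 45 the rise passed the test with Brg1 and not without it. These counts describe the genes and do not test them again, since the same arrays chose the genes.

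**Figure D1:**
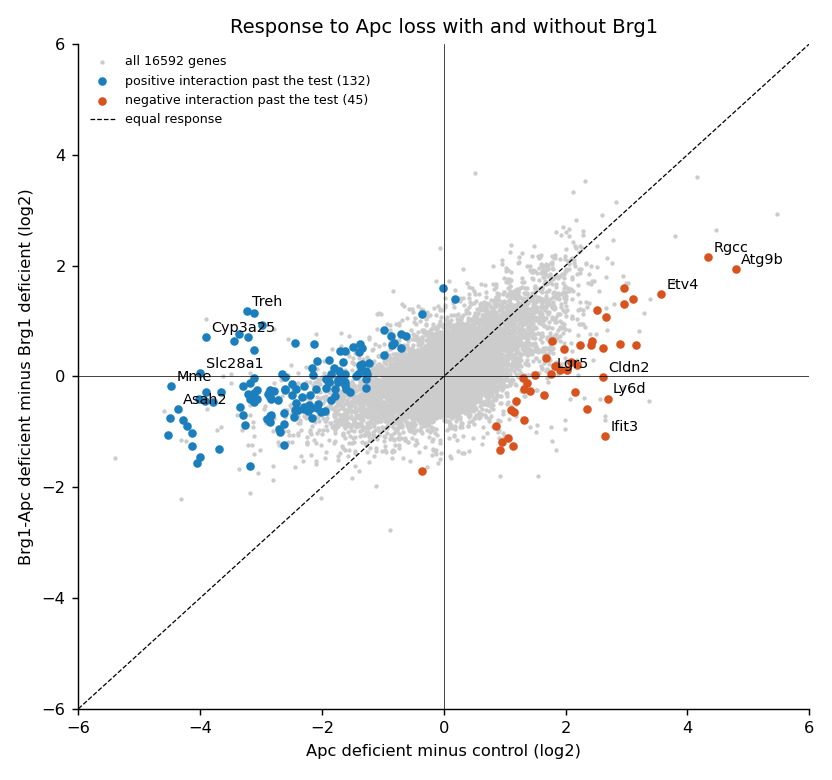
Response to Apc loss with Brg1 intact (horizontal axis, Apc deficient minus control, log2) against the response with Brg1 missing (vertical axis, Brg1-Apc deficient minus Brg1 deficient, log2), one point per gene, with all 16592 genes in grey and the 177 genes past the interaction test in colour. The 132 positive genes lie mostly at the left close to a vertical value of 0, and the 45 negative genes mostly at the right, below the diagonal of equal response.

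The positive genes fell into 2 main shapes. In 82 of them the Apc deficient group stood apart as the low one, and in 45 the control group stood apart as the high one. The remaining 5 were 4 genes low in the Brg1 deficient group and Il17rb, whose Brg1-Apc deficient mean was the high one, although those arrays overlapped control. Standing apart here means having the group mean farthest from the mean of the other 3, with no test attached. In 76 of the 82 the Apc deficient arrays did not overlap any other array, and in 42 of the 45 the control arrays did not, whereas over all genes the Apc deficient arrays lay outside all others in 11.3% and the control arrays in 1.95%.

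In the 82 genes of the first shape, Apc loss lowered the level and additional Brg1 loss brought it back up. Their median change was -2.30 for Apc loss alone, -0.30 for Brg1 loss alone and 1.79 for Brg1 loss added to Apc loss. All 82 passed the test as lower in Apc deficient than in control, and 81 as higher in Brg1-Apc deficient than in Apc deficient, where the share over all genes was 7.09% for the former and 3.92% for the latter. Of them, 10 were lower in Brg1-Apc deficient than in Brg1 deficient tissue, against 0.946% of all genes. The same arrays chose these genes and their shape, so the shares describe them and do not test them.

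Asah2 encodes the neutral ceramidase of the brush border, which digests sphingolipids. It read 13.32, 12.85, 13.69 and 13.50 in control, 11.97, 12.87, 13.46 and 12.72 in Brg1 deficient, 9.98, 7.82 and 9.14 in Apc deficient, and 12.10, 12.04, 11.79 and 12.75 in Brg1-Apc deficient tissue. The 3 Apc deficient arrays lay far below all 12 others, and the Brg1-Apc deficient arrays sat close to the Brg1 deficient ones. Apc loss lowered Asah2 20.6-fold with Brg1 intact, adding Brg1 loss raised it again 9.13-fold, and the interaction was 3.78 (SE 0.57, adjusted p = 0.0102).

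Edn2, the peptide ligand endothelin of enterocytes, read 9.81, 9.96, 9.33 and 10.15 in control and 8.47, 8.73, 9.48 and 8.69 in Brg1 deficient tissue. Apc deficient arrays read 7.67, 4.89 and 7.21, and Brg1-Apc deficient arrays 9.77, 8.79, 9.34 and 10.33. The Apc deficient arrays were again the low ones without overlap, and 1 of them, replicate 2, was below the background level. The interaction was 3.94 (SE 0.69, adjusted p = 0.0167). Had the separate changes added up, the combined loss would read 5.62, below the background level.

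Naaladl1, a membrane aminopeptidase that trims dietary peptides, read 11.48, 10.88, 12.47 and 11.53 in control and 12.09, 11.57, 11.01 and 9.49 in Brg1 deficient tissue. It read 7.82, 6.39 and 7.06 in Apc deficient and 10.68, 8.97, 10.06 and 11.45 in Brg1-Apc deficient tissue. The 2 groups that keep Apc overlapped the Brg1-Apc deficient arrays, and none overlapped the Apc deficient arrays. Its interaction was 3.75 (SE 0.80, adjusted p = 0.0388).

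Mme encodes neprilysin, a peptidase of the enterocyte surface. Its control arrays read 11.31, 11.52, 11.18 and 11.81 and its Brg1 deficient arrays 9.75, 10.52, 10.43 and 8.57. The Apc deficient arrays read 8.34, 5.75 and 6.83, and the Brg1-Apc deficient arrays 10.44, 8.33, 9.24 and 10.54. Brg1-Apc deficient replicate 2 at 8.33 met the highest Apc deficient array at 8.34, so these groups touched. The interaction of Mme was 4.30 (SE 0.80, adjusted p = 0.0229). Had its separate changes added up, the combined loss would read 5.34, also below the background level.

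A further 3 of the named genes belong to this shape. Slc47a1, which exports organic cations, went from a mean of 11.55 ± 0.52 (SD, n = 4) in control to 7.52 ± 1.22 (n = 3) with Apc loss and 10.06 ± 0.88 (n = 4) with the combined loss, where Brg1 loss alone gave 10.46 ± 0.65 (n = 4). Mertk, a receptor tyrosine kinase for dying cells, went from 10.92 ± 0.58 to 7.94 ± 1.19 with Apc loss and 10.23 ± 1.02 with the combined loss, against 9.30 ± 1.21 with Brg1 loss alone. Its Brg1 deficient arrays at 7.58 to 10.16 and its Brg1-Apc deficient arrays at 8.79 to 11.20 overlapped the Apc deficient arrays at 6.71 to 9.09. Slc7a8, an exchanger of neutral amino acids, read 12 ± 0.12 in control, 10.51 ± 0.42 with Brg1 loss, 7.46 ± 0.75 with Apc loss and 9.46 ± 1.43 with the combined loss, so that its rise with added Brg1 loss was partial. The interactions were 3.62 (SE 0.72), 3.91 (SE 0.88) and 3.48 (SE 0.74), with adjusted p of 0.0278, 0.0446 and 0.0367.

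Rapgefl1, which is related to exchange factors of Rap GTPases, was chosen after its values were seen, because its adjusted p was as small as any. It read 9.33, 9.26, 9.14 and 9.53 in control, 9.89, 9.68, 9.62 and 9.17 in Brg1 deficient, 6.55, 6.25 and 5.79 in Apc deficient and 9.30, 9.23, 9.12 and 9.52 in Brg1-Apc deficient tissue. The control and Brg1-Apc deficient arrays were nearly the same. Its interaction was 2.82 (SE 0.30, adjusted p = 0.000459).

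**Figure D2:**
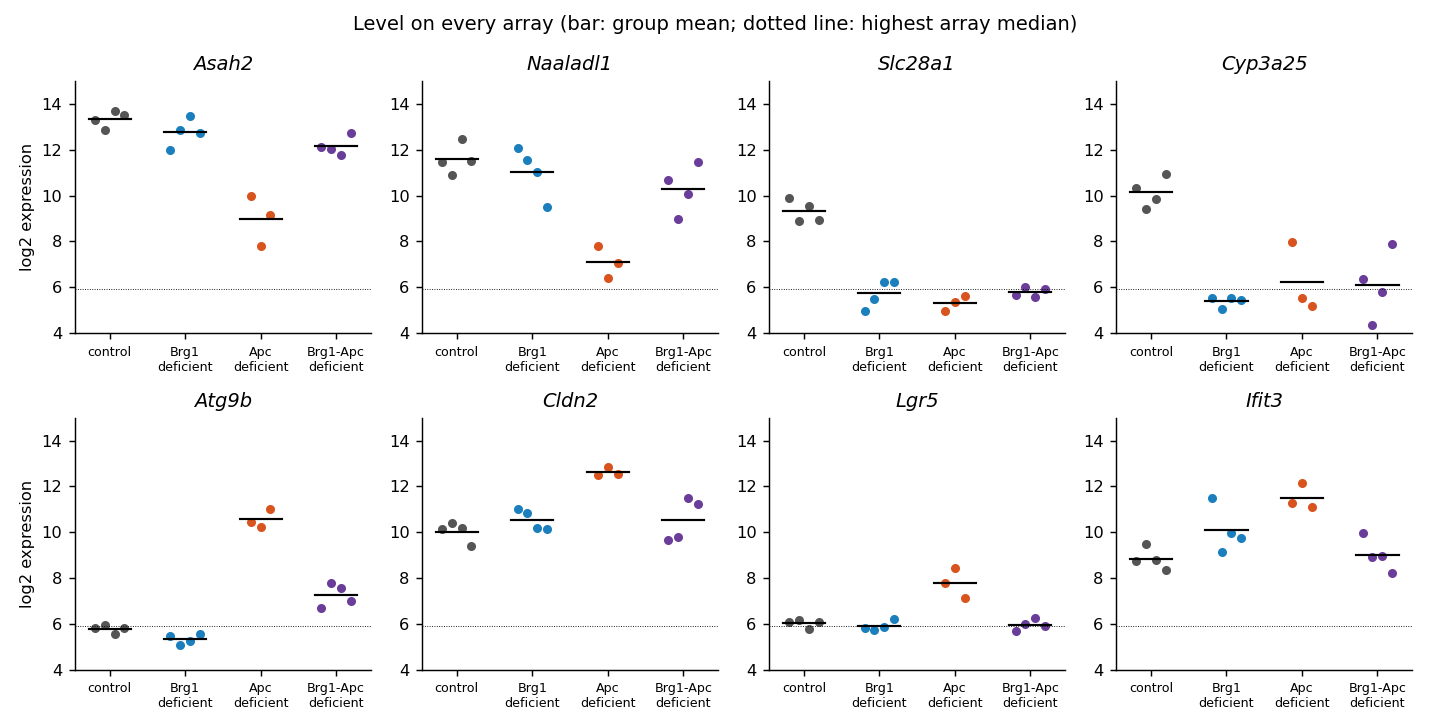
Log2 value of each of the 15 arrays for genes of each shape, by genotype group, with a bar at each group mean. Asah2 and Naaladl1 are low on the 3 Apc deficient arrays alone, Slc28a1 and Cyp3a25 are high on the 4 control arrays, and Atg9b, Cldn2 and Lgr5 are highest on the 3 Apc deficient arrays, while for Ifit3 Brg1 deficient replicate 1 reaches them. The dotted line is the background level of 5.90.

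In the 45 positive genes of the second shape, either loss was followed by a fall, and adding the other loss changed little more. The median change was -1.83 for Brg1 loss alone and -2.66 for Apc loss alone, against 0.56 for Brg1 loss added to Apc loss and -0.04 for Apc loss added to Brg1 loss. Brg1 loss lowered 43 of the 45 past the test where Apc was intact, against 2.50% of all genes. Apc loss lowered all 45 where Brg1 was intact, against 7.09% of all genes. Both counts are a description, since the same arrays chose the genes and their shape. Control was the only group without Cre, so in these genes an effect of Cre itself cannot be told apart from the falls. The arrays set a further limit. Had the separate falls added up on the log2 scale, 33 of the 45 would have come to lie at or below the background level of 5.90, where a further fall cannot be read. In the first shape this held for 12 of 82.

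Slc28a1 encodes a sodium-coupled nucleoside transporter of the brush border, and it had the smallest adjusted p together with Rapgefl1. It read 9.89, 8.88, 9.53 and 8.94 in control. All other groups were near background, with 4.97, 5.49, 6.23 and 6.23 in Brg1 deficient, 4.98, 5.34 and 5.6 in Apc deficient and 5.64, 6.0, 5.56 and 5.94 in Brg1-Apc deficient tissue. The interaction of 4.06 (SE 0.43, adjusted p = 0.000459) thus compares an observed combined-loss mean of 5.79 with an additive level of 1.72, which lies below every array median.

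Cyp3a25, a cytochrome P450 of xenobiotic metabolism, read 10.35, 9.42, 9.87 and 10.95 in control and 5.53, 5.05, 5.55 and 5.43 in Brg1 deficient tissue. The Apc deficient arrays read 7.97, 5.55 and 5.18, and the Brg1-Apc deficient arrays 6.35, 4.37, 5.80 and 7.88. Only the control arrays were high throughout, and the combined loss spread over a wide range. Its interaction, 4.62 (SE 0.91, adjusted p = 0.0277), was the largest that passed, and its additive level of 1.48 also lies below background.

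Nat8, an acetyltransferase that finishes mercapturic acids, read 10.15 to 10.81 in control, 5.48 to 7.14 in Brg1 deficient, 5.57 to 8.05 in Apc deficient and 6.0 to 8.68 in Brg1-Apc deficient tissue. St3gal4, a sialyltransferase, read 10.06 to 11.49, 5.35 to 5.97, 6.74 to 7.62 and 5.33 to 8.69 in the same order. In both genes the 4 control arrays lay above all 11 others, with no overlap between control and the 3 deficient groups. The interactions were 4.12 (SE 0.81) and 4.08 (SE 0.80), each with an adjusted p of 0.0276. Their additive levels, 3.01 and 2.24, also lie below background.

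Treh and Xpnpep2 had all 4 group means above background, but their additive levels, 5.01 and 5.78, lay below it. Treh, the trehalase of the brush border, read 11.01, 11.30, 11.32 and 11.60 in control and 7.16, 6.81, 9.33 and 9.66 in Brg1 deficient tissue, then 9.68, 6.82 and 7.71 in Apc deficient and 9.50, 9.19, 8.76 and 10.22 in Brg1-Apc deficient tissue. The combined loss was no lower than either loss alone, and its interaction was 4.41 (SE 0.90, adjusted p = 0.0321). Xpnpep2, a membrane aminopeptidase, read 11.47 to 12.95 in control, 7.39 to 10.07 in Brg1 deficient, 8.30 to 9.99 in Apc deficient and 9.39 to 11.22 in Brg1-Apc deficient tissue. Its interaction was 4.27 (SE 0.77, adjusted p = 0.0197), and its other probe also passed with a positive sign. Of the 47 positive genes with other probes, all of these had the same sign in 38, and another probe passed in 14; for Slc47a1 2 of 3 others had the same sign and 0 passed, and for Naaladl1 and Mme no other probe passed.

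Nat8 is shown with its promoter because it is among the largest positive values and holds a core of the HNF4 motif, the site of the nuclear receptor that keeps enterocytes differentiated. The sequence is from RefSeq on GRCm38.p6, runs from 250 bases before to 50 bases after the gene start, and carries the match in capitals. Nat8 lies on the minus strand at chr6:85832230-85832529, and its match falls just after the start.
Nat8: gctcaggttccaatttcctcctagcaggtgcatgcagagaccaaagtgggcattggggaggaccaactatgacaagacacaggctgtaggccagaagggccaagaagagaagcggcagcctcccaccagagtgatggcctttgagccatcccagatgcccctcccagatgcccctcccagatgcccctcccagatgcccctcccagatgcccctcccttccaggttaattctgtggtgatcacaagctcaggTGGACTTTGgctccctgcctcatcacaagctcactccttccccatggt
The HNF4 cores searched were CAAAGTCCA and CAAAGTTCA, and 3 of the 106 positive genes with a promoter in the table held one (2.83%), as did 1 of 34 negative genes (2.94%). Among all 27025 genes with a promoter the share was 0.995%. This set, used for every motif here, includes genes that were not measured on these arrays.

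Gene lists of digestion and absorption are described next. The lists were chosen with earlier results of these data known, and the median over all 16592 genes was 0.02. In the list of brush border digestion and nutrient transport, 9 of 27 measured genes passed with a positive interaction, none with a negative one, and the median was 2.24. Over all genes 0.796% passed as positive. Apc loss alone lowered 22 of the 27, against 7.09% of all genes, and added Brg1 loss raised 11, against 3.92%. Apc loss on top of Brg1 loss lowered 2, against 0.946%. Beyond the naming rule, all 9 are given. Besides Treh, Mme, Xpnpep2, Naaladl1 and Slc7a8, the 9 include Amn (2.62, the membrane anchor of the cobalamin receptor), Slc15a1 (2.71, the peptide transporter), Slc1a1 (1.57, a glutamate transporter, which takes the other sign on the linear scale of the signal, at -470 signal units) and Slc7a9 (1.52, a subunit of the cystine transporter). The sucrase-isomaltase gene Sis (2.36, adjusted p = 0.0638) and the glucose transporter gene Slc5a1 (2.37, adjusted p = 0.0581) had values of like size that did not pass, and were picked from the list after their values were seen.

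The mean of this list ran from 10.22 to 10.44 over the control arrays and from 9.0 to 10.08 over the Brg1 deficient arrays. It ran from 7.19 to 8.61 over the Apc deficient arrays and from 8.64 to 9.80 over the Brg1-Apc deficient arrays. The control arrays were the highest and the Apc deficient arrays the lowest, each without overlap, and the other 2 groups overlapped each other.

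**Figure D3:**
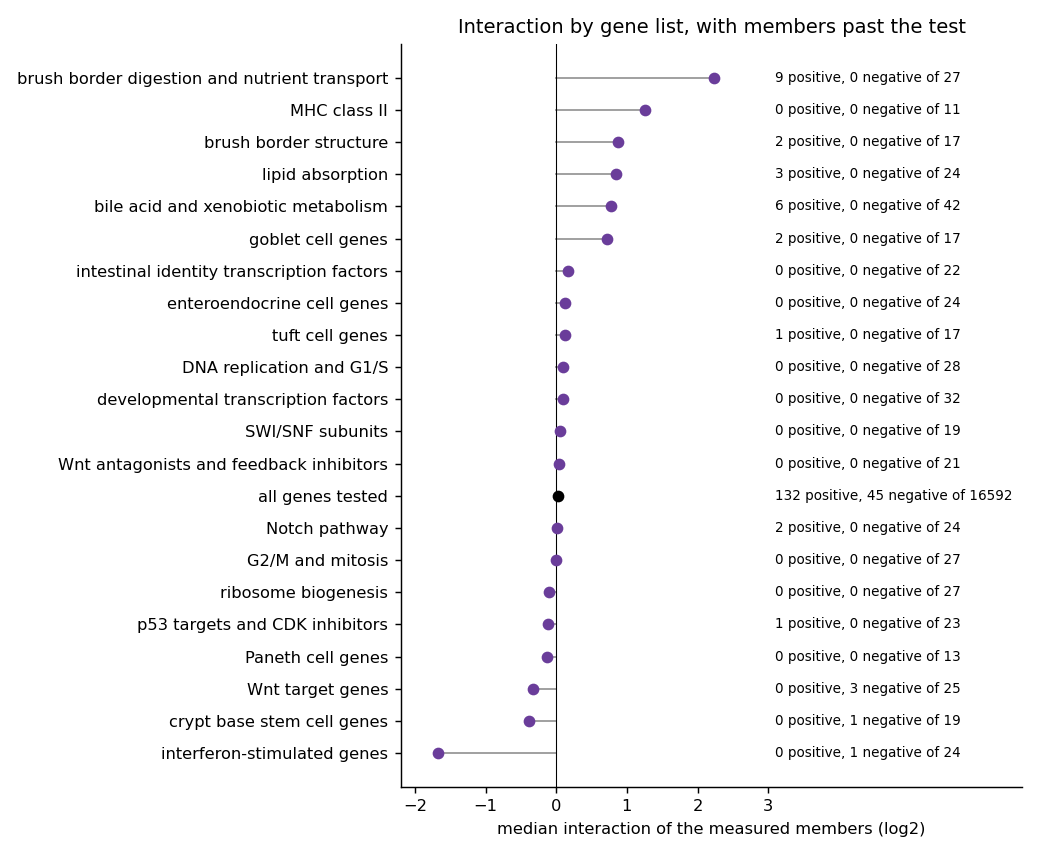
Median interaction (log2) of the measured members of 21 gene lists, with the number of members past the test in each direction at the right and all genes tested in black. Brush border digestion and nutrient transport lies highest at 2.24 and interferon-stimulated genes lowest at -1.68, against 0.02 for all genes.

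Of 24 lipid absorption genes, 3 passed as positive, against 0.796% of all genes, and the list's median was 0.84. Dgat1, which makes the last bond of triglycerides, read 11.52, 11.10, 11.42 and 11.19 in control and 11, 11.36, 11.61 and 11.27 in Brg1 deficient tissue. It read 9.56, 8.57 and 9.25 in Apc deficient and 10.99, 10.89, 10.76 and 11.26 in Brg1-Apc deficient tissue. Brg1 loss alone left the mean of Dgat1 at 11.31 in both groups, and the same loss raised it 3.61-fold where Apc was missing (interaction 1.85, SE 0.32, adjusted p = 0.0159). Mogat2, which supplies Dgat1 with diglycerides, had an interaction of 2.35 (SE 0.49), and Creb3l3, a transcription factor of lipid metabolism, had 1.69 (SE 0.38).

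Of 42 bile acid and xenobiotic genes, 6 were positive, against 0.796% of all genes, and none negative, with a median of 0.77. Slc51a, a subunit of the basolateral bile acid exporter, read 12.38 to 13.15 in control, 11.86 to 12.64 in Brg1 deficient, 8.71 to 10.53 in Apc deficient and 11.46 to 12.32 in Brg1-Apc deficient tissue, so only the Apc deficient arrays were apart (interaction 2.58, SE 0.50, adjusted p = 0.0273). The carboxylesterase gene Ces2e (2.60), the xenobiotic receptor gene Nr1i3 (2.37) and the glucuronosyltransferase gene Ugt2b36 (1.95) completed the 6 with Cyp3a25 and Nat8, of which Nr1i3 and Ugt2b36 are named beyond the rule to account for all 6.

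Of 17 genes of brush border structure, 2 passed as positive, against 0.796% of all genes, with a list median of 0.88. They are Espn (3.05, SE 0.68), which bundles the actin of microvilli, and Usp2 (2.72, SE 0.49), a deubiquitinating enzyme. In both, the control group stood apart as high.

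The goblet cell, Notch, tuft cell and p53 lists held 1 or 2 positive genes each, where 0.796% of all genes were positive. Of 17 goblet cell genes, Rep15 (2.17, SE 0.32, adjusted p = 0.00996) and Bcas1 (1.79, SE 0.33, adjusted p = 0.0197) passed. Rep15 read 9.94 to 10.79 in control, 9.32 to 9.62 in Brg1 deficient, 8.31 to 8.90 in Apc deficient and 9.56 to 10.19 in Brg1-Apc deficient tissue. Apc loss lowered it by 1.88 where Brg1 was intact, and added Brg1 loss raised it again by 1.26. The other 15 goblet cell genes did not pass.

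Notch signalling keeps crypt progenitors from secretory fates, and 2 of its 24 measured genes had a positive interaction past the test. Nrarp, a target and feedback inhibitor of the pathway, read 9.39, 9.30, 8.97 and 9.42 in control and 6.45, 7.27, 5.71 and 6.44 in Brg1 deficient tissue. It read 8.38, 8.23 and 8.22 in Apc deficient and 7.20, 6.96, 7.44 and 7.65 in Brg1-Apc deficient tissue. Brg1 loss lowered Nrarp by 2.80 where Apc was intact and by 0.96 where it was missing, and the groups that lack Brg1 were below the others throughout. The interaction was 1.84 (SE 0.38, adjusted p = 0.034). Rfng, a glycosyltransferase that modifies Notch receptors, was high in control alone (interaction 1.45, SE 0.33, adjusted p = 0.0485). The median of the Notch list was 0.01.

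Cdkn2b, which encodes a cyclin-dependent kinase inhibitor, was the only one of 23 p53 target and inhibitor genes to pass. It read 11.09, 11.04, 11.16 and 10.97 in control, 11.68, 11.39, 11.95 and 11.24 in Brg1 deficient, 8.24, 8.34 and 8.71 in Apc deficient and 10.31, 10.37, 10.35 and 10.28 in Brg1-Apc deficient tissue. Apc loss lowered it 6.20-fold with Brg1 and lowered it less without Brg1, with an interaction of 1.40 (SE 0.26, adjusted p = 0.0239). On the linear scale of the signal this interaction was near 0 and took the other sign, at -3.24 signal units. Il17rb, a receptor subunit of tuft cells, was the 1 of 17 tuft cell genes past the test (1.35, SE 0.28, adjusted p = 0.0324), at low levels of 5.55 to 6.78. Its Brg1-Apc deficient arrays, at 6.36 to 6.78, overlapped the control arrays, at 6.04 to 6.59.

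The negative side held genes that Apc loss raised strongly and that the combined loss did not raise, or raised less. In 37 of the 45 the Apc deficient group stood apart as the high one. In 35 of these its arrays overlapped no others, which over all genes held for 11.3% in either direction. Their median change was 2.16 for Apc loss alone and 0.19 for Apc loss on top of Brg1 loss, and -1.87 for Brg1 loss added to Apc loss against 0.04 for Brg1 loss alone. All 37 passed as higher in Apc deficient than in control, against 8.14% of all genes, a description only, since the same arrays chose them. Without Brg1, Apc loss still raised 8 of them, against 5.53% of all genes. In 5 of the 37 the other 3 group means were all at background.

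Atg9b, a membrane protein of autophagosome formation, had the smallest adjusted p of the negative genes. It read 5.81, 5.94, 5.55 and 5.81 in control and 5.46, 5.07, 5.24 and 5.57 in Brg1 deficient tissue, 10.46, 10.21 and 11.02 in Apc deficient and 6.70, 7.77, 7.58 and 7.02 in Brg1-Apc deficient tissue. The Apc deficient arrays were highest, the Brg1-Apc deficient arrays intermediate and the rest at background, with no overlap between these levels. Apc loss raised Atg9b from a control mean of 5.78, under the background level, to 10.56, so no fold is given for that rise, and the combined loss left it 9.83-fold below the Apc deficient mean. The interaction was -2.85 (SE 0.35, adjusted p = 0.00299).

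Rgcc, a regulator of the cell cycle, had the same graded shape. It read 7.26, 6.94, 6.03 and 7.41 in control, 5.69, 6.57, 6.14 and 6.31 in Brg1 deficient, 11.48, 11.48 and 10.81 in Apc deficient and 8.33, 8.40, 8.5 and 8.07 in Brg1-Apc deficient tissue. Its interaction was -2.2 (SE 0.41, adjusted p = 0.0229), and Apc loss still raised it by 2.15 without Brg1, against 4.34 with it.

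For other genes the rise passed the test only where Brg1 was intact. Cldn2, a claudin that forms cation pores in tight junctions of crypt cells, read 10.13, 10.39, 10.20 and 9.38 in control, 11.02, 10.84, 10.20 and 10.14 in Brg1 deficient, 12.52, 12.83 and 12.54 in Apc deficient and 9.65, 9.81, 11.49 and 11.22 in Brg1-Apc deficient tissue. Apc loss raised Cldn2 by 2.61 with Brg1, and the difference without Brg1 was -0.01 (interaction -2.61, SE 0.54, adjusted p = 0.034). The Brg1-Apc deficient arrays were split between the slides, with the lower values on the first slide and the higher ones on the second.

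Ly6d, a surface protein anchored by lipid, read 6.43 to 7.06 in control, 7.44 to 7.73 in Brg1 deficient, 8.51 to 9.80 in Apc deficient and 6.49 to 7.77 in Brg1-Apc deficient tissue. Its interaction of -3.09 (SE 0.46, adjusted p = 0.00996) was shared in sign by its other probe, which also passed. Of the 18 negative genes with other probes, all of these had the same sign in 15, and another probe passed in 3. Btc, the epidermal growth factor receptor ligand betacellulin, read 6.81 to 7.05, 6.75 to 8.35, 9.90 to 10.22 and 7.32 to 8.69 in the same order (interaction -2.58, SE 0.45, adjusted p = 0.0176). Tnfrsf11b, the decoy receptor osteoprotegerin, read 5.20 to 6.46, 5.21 to 6.10, 7.97 to 9.19 and 5.78 to 6.69 (interaction -2.31, SE 0.48, adjusted p = 0.0331). In all 3 genes the Apc deficient arrays lay above every other array.

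Of 25 Wnt target genes, 3 passed, all negative, and the list's median was -0.33. Over all genes 0.271% were negative. Apc loss raised 17 of the 25 with Brg1 intact and 11 with Brg1 missing, against 8.14% and 5.53% of all genes. Etv4, an ETS transcription factor, read 5.44 to 5.84 in control, 5.20 to 5.72 in Brg1 deficient, 9.19, 9.48 and 8.89 in Apc deficient and 6.76, 7.27, 7.43 and 6.14 in Brg1-Apc deficient tissue, a reduced but present rise (interaction -2.08, SE 0.37, adjusted p = 0.0176).

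Lgr5, the R-spondin receptor that marks crypt base stem cells, read 6.09, 6.16, 5.77 and 6.07 in control and 5.84, 5.72, 5.86 and 6.23 in Brg1 deficient tissue. It read 7.80, 8.42 and 7.13 in Apc deficient and 5.67, 5.99, 6.24 and 5.91 in Brg1-Apc deficient tissue. Myc, the growth-promoting transcription factor, read 5.29 to 5.59, 5.06 to 5.76, 6.43 to 7.84 and 4.49 to 5.64 in the same order. In both genes the 3 Apc deficient arrays were raised and the other 12 stayed around the background level, so the rise seen with Brg1 was not detectable without it. The interactions were -1.72 (SE 0.35, adjusted p = 0.03) and -1.97 (SE 0.42, adjusted p = 0.0388).

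Other Wnt targets were raised by Apc loss both with and without Brg1, and the 4 named here were chosen after their values were seen. Sp5, a direct target, rose from 7.65 to 9.97 with Brg1 and from 6.04 to 9.57 without it, and its interaction of 1.22 (SE 0.35) did not pass (adjusted p = 0.125). Axin2, a negative feedback gene of the pathway, rose from 10.02 to 12.02 and from 9.08 to 10.98 (interaction -0.10, SE 0.48), and the stem cell surface gene Cd44 rose from 7.58 to 9.91 and from 6.6 to 8.63 (interaction -0.30, SE 0.36). Ascl2, a transcription factor of stem cells, rose with Brg1 from 5.82 to 7.42, read 5.90 and 6.08 without it, and missed the threshold (-1.42, SE 0.36, adjusted p = 0.0775). Of 19 stem cell genes Lgr5 alone passed, where 0.271% of all genes were negative, and the list's median was -0.38. Of 21 Wnt antagonists none passed, and Dkk4 came closest at 1.14 (SE 0.44, adjusted p = 0.308).

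The TCF/LEF motif is the DNA site through which beta-catenin acts. Its cores CTTTGAT and CTTTGAA were on either strand of the promoters of 2 of 34 negative genes (5.88%) and 4 of 106 positive genes (3.77%), against 9.88% of all genes with a promoter. A window without these letters says nothing of sites elsewhere. The motif of the intestinal factor CDX was in 3 of 34 negative (8.82%) and 6 of 106 positive genes (5.66%), against 8.32% of all genes, and that of HNF1 in none of either set and in 20 of all genes.

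Interferon-stimulated genes, which are switched on by antiviral signalling through STAT and IRF factors, had the lowest median of the pathway lists, at -1.68. Only Ifit3 of 24 measured genes passed the interaction test, as negative, against 0.271% of all genes. Apc loss raised 10 of the 24 and lowered 1 where Brg1 was intact, and raised none and lowered 1 where it was missing. The shares of all genes were 8.14% and 7.09% with Brg1 and 5.53% and 0.946% without it. Within Apc deficient tissue, Brg1 loss lowered 12 and raised 1, against 3.89% and 3.92% of all genes.

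Ifit3, which encodes an RNA-sensing adaptor, read 8.73, 9.51, 8.77 and 8.36 in control and 11.48, 9.16, 9.99 and 9.76 in Brg1 deficient tissue. It read 11.27, 12.13 and 11.10 in Apc deficient and 9.96, 8.94, 8.95 and 8.21 in Brg1-Apc deficient tissue. The Apc deficient arrays were high, the Brg1-Apc deficient arrays resembled control, and Brg1 deficient replicate 1 reached the Apc deficient range. The interaction of -3.74 (SE 0.64, adjusted p = 0.0153) was the most negative that passed. Ifit2 (-3.81, SE 1.01, adjusted p = 0.0878), Oas2 (-3.43, SE 0.94, adjusted p = 0.103) and Mx1 (-1.56, SE 0.39, adjusted p = 0.071) had values in the same direction that did not pass, and were picked from the list after their values were seen.

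The list's mean by array was 8.30 to 9.15 in control, 7.94 to 9.93 in Brg1 deficient, 9.61 to 10.27 in Apc deficient and 7.71 to 8.74 in Brg1-Apc deficient tissue. Brg1 deficient replicate 1, at 9.93, lay within the Apc deficient range and the other 3 Brg1 deficient arrays did not. Outside the list, Oasl1 (-2.14) and Samd9l (-2.09) are interferon-induced genes that passed and were noticed after their values were seen. Phf11d (-2.94, SE 0.63), Spats2l (-2.25, SE 0.51) and Thg1l (-2.45, SE 0.49), the last encoding a guanylyltransferase of transfer RNA, were among the 12 most negative genes past the test. Phf11d read 6.46 to 7.05 in Brg1-Apc deficient tissue against 7.64 to 8.57 in control, so its combined-loss arrays lay below the control arrays.

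**Figure D4:**
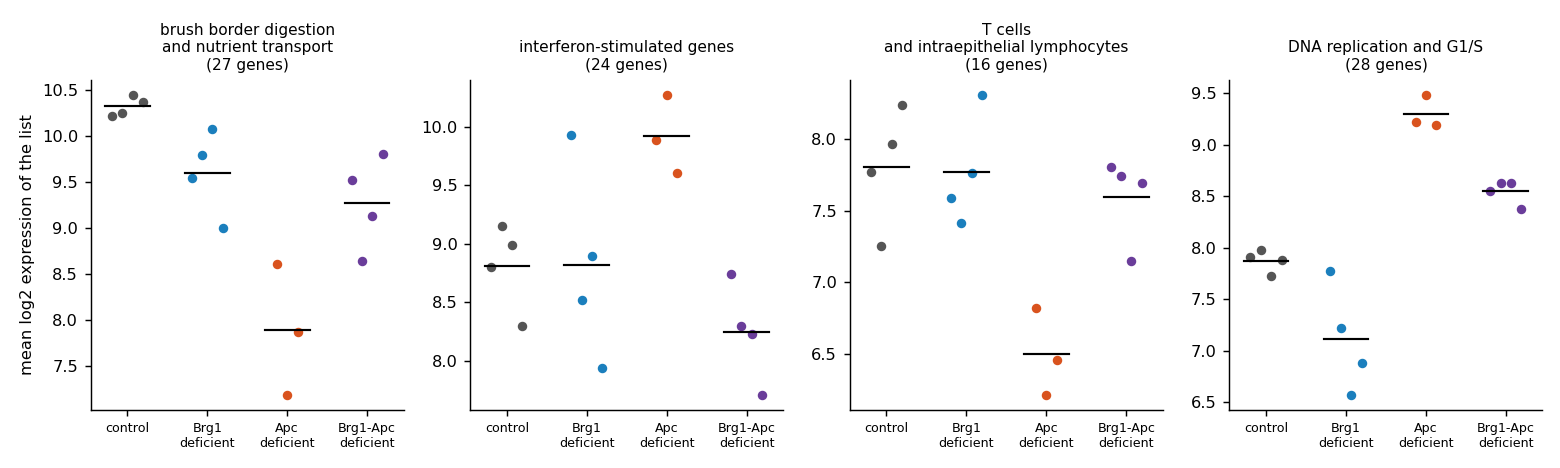
Mean log2 value of the measured members of 4 gene lists on each of the 15 arrays, by genotype group. Interferon-stimulated genes are high on the 3 Apc deficient arrays and on Brg1 deficient replicate 1, the brush border and lymphocyte lists are low on the 3 Apc deficient arrays, and the replication list is high on the arrays of both groups that lack Apc. Bars are group means, and the vertical axes do not start at 0.

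The promoter of Ifit3 is printed because this gene carries the most negative value past the test. This promoter also holds 2 matches to the interferon response element core. That core is GAAA followed after any 2 bases by GAAA again, searched on both strands. The promoter lies on the plus strand at chr19:34583279-34583578 (GRCm38.p6, RefSeq), and the first match, in capitals, starts 156 bases before the gene start.
Ifit3: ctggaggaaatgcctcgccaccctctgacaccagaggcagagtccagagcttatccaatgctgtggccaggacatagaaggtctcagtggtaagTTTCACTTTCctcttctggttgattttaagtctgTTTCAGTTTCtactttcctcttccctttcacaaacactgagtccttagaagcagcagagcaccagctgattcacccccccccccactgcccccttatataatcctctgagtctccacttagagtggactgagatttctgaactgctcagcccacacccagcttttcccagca
This core was in the promoters of 3 of 34 negative genes (8.82%; Edn1, Ifit3 and Plcd3) and 1 of 106 positive genes (0.943%; Mylk), against 3.99% of all genes with a promoter. The matches are a description of letters and not of bound sites.

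Vmn2r10, a vomeronasal receptor gene, and Smim3, which encodes a small membrane protein, also ranked among the 12 most negative genes past the test (-2.40, SE 0.39, and -2.18, SE 0.49). All 15 of their values lay below 5.90, between 2.72 and 5.37, so these differences are between readings under the background level.

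A few further genes were chosen after their values were seen, and Smad5 and Upk3b departed from the main shapes. Over all genes, the 4 Brg1 deficient arrays lay outside all others in 2.13%. Smad5, a transducer of bone morphogenetic protein signals, was low in Brg1 deficient tissue alone, at 6.76 to 6.97 against 7.56 to 8.55 on the other 11 arrays (interaction 1.22, SE 0.27, adjusted p = 0.0446). Upk3b, a uroplakin gene, was high there alone, at 7.87 to 8.64 against 5.65 to 6.68 elsewhere (interaction -1.34, SE 0.29, adjusted p = 0.0409). The difference with Brg1 loss was -1.01 for Smad5 and 2.12 for Upk3b where Apc was present, and 0.21 and 0.78 where Apc was missing. Cd276, an immune checkpoint ligand, had the main negative shape but was also lower with Brg1 loss alone, with means of 6.63 in control, 5.40 with Brg1 loss, 9.15 with Apc loss and 6.59 with the combined loss (interaction -1.33, SE 0.27, adjusted p = 0.034).

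No proliferation gene of the lists passed the interaction test. Of 28 replication genes Apc loss raised 22 with Brg1 and 20 without it, against 8.14% and 5.53% of all genes, and the median interaction was 0.10. Mcm3, a subunit of the replicative helicase, came closest at -1.30 (SE 0.45, adjusted p = 0.228). Of 27 mitosis genes 14 and 11 rose, and of 27 ribosome biogenesis genes 20 and 16, with median interactions of -0.01 and -0.10. The means of the replication list were 7.72 to 7.98 in control, 6.57 to 7.77 in Brg1 deficient, 9.19 to 9.48 in Apc deficient and 8.38 to 8.63 in Brg1-Apc deficient tissue. Brg1 loss lowered 8 of the 28 where Apc was intact and 6 where it was missing, against 2.5% and 3.89% of all genes. An interaction that misses the threshold does not show that the responses were equal.

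Among transcription factors, none of 22 intestinal identity factors passed (median 0.16), and Nr5a2, a nuclear receptor of crypts, came closest at 1.67 (SE 0.45, adjusted p = 0.0999). None of 32 developmental factors passed, 23 of which were at background in all groups. Msx1, a homeobox gene of that list, was raised by Apc loss from 5.75 to 10.22 with Brg1 and from 5.71 to 8.36 without it (interaction -1.82, SE 0.56, adjusted p = 0.159). None of 19 SWI/SNF subunit genes, a list that leaves out Smarca4, passed, with Smarcc1 closest at -1.18 (SE 0.49, adjusted p = 0.366). No Paneth cell gene of 13 (Nupr1 at -1.63, adjusted p = 0.237) and no enteroendocrine gene of 24 (Pyy at 1.5, adjusted p = 0.333) passed either, nor did Kif20a (-1.35, adjusted p = 0.435) of the mitosis list or Wdr12 (-0.60, adjusted p = 0.458) of the ribosome list.

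The 11 class II antigen presentation genes had a median interaction of 1.25, of which none passed. Their master regulator Ciita read 9.25 to 9.81 in control and 7.21 to 8.05, 7.75 to 8.23 and 7.01 to 8.11 with Brg1 loss, Apc loss and the combined loss, which put it among the genes high in control alone, and it missed the threshold (1.43, SE 0.37, adjusted p = 0.0805).

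Lymphocyte markers moved with the enterocyte genes of the first shape. The mean of 16 T cell and intraepithelial lymphocyte genes was 7.25 to 8.23 in control, 7.41 to 8.30 in Brg1 deficient, 6.22 to 6.82 in Apc deficient and 7.15 to 7.80 in Brg1-Apc deficient tissue. Only the Apc deficient arrays were low, and 4 of the 16 genes were at background in all groups. Apc loss lowered 9 of the 16, against 7.09% of all genes, Brg1 loss added to it raised 8, against 3.92%, and none passed the interaction test, with a median of 1.36. Ccl5 (1.97, adjusted p = 0.0928) and the epithelium-binding integrin gene Itgae (2.60, adjusted p = 0.0854) came closest, and were named after their values were seen. Among the 177 genes, Itgb7 (2.44), Ctsw (2.38) and Zap70 (2.21) are expressed in lymphocytes and were noticed after their values were seen. Fewer lymphocytes and less RNA per lymphocyte cannot be told apart here, and the part of these cells in the enterocyte pattern was not tested.

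Markers of pancreas and smooth muscle moved with single arrays. The mean of 14 pancreatic acinar genes was 10.38 on control replicate 4 and 5.59 to 6.02 on the other 14 arrays, and that of 11 smooth muscle genes was 9.03 on control replicate 1 and 5.96 to 7.67 elsewhere. Of the smooth muscle list Mylk, the 1 member past the test, was positive (2.33, SE 0.52), where 0.796% of all genes were. Mylk read 9.19 to 10.27 in Apc deficient tissue and 10.71 to 12.58 elsewhere. On control replicate 1 it read 12.44, against 11.81 to 12.20 on the other control arrays. The mean of 12 macrophage and dendritic cell genes ran lowest in Brg1-Apc deficient tissue, at 5.94 to 6.29. It read 6.44 to 7.01 in control, 6.29 to 6.93 in Brg1 deficient and 6.27 to 6.71 in Apc deficient tissue. The fibroblast and matrix list also had its lowest group median with the combined loss, at 6.03 against 6.54 to 7.01. No acinar, B cell, macrophage, fibroblast, endothelial or red cell marker passed. With control replicates 1 and 4 both left out, 2 genes passed, Slc28a1 and Rapgefl1. There 2058 probes had an unadjusted p under 0.05, where chance alone gives about 5% of the 25695. The mean of 12 epithelial identity genes ran from 11.63 to 11.99 in control and from 11.29 to 11.94 in Brg1 deficient tissue. It ran from 11.44 to 11.55 in Apc deficient and from 11.47 to 11.58 in Brg1-Apc deficient tissue, so both lay below control. Apc loss with Brg1 intact lowered 4 of the 12 and raised 2, against 7.09% and 8.14% of all genes.

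The number of genes past the test depended on single arrays, as the plot of leaving out each array shows, while signs did not. Leaving out control replicates 1 to 4 in turn left 61, 120, 67 and 58 genes past the test, and leaving out Brg1 deficient replicates 1 to 4 left 85, 86, 189 and 422. Without Apc deficient replicate 1, 2 or 3 there were 167, 21 and 91, and without Brg1-Apc deficient replicates 1 to 4 there were 60, 228, 124 and 50. All 177 genes kept their sign in each of these 15 settings, which is no independent check, since the same arrays chose the genes. A set of 20 genes passed in every one of the 15 settings. The 17 positive ones are Slc28a1, Edn2, Asah2, Slc13a2, Slc5a4b, Rdh7, Gsdmc2, Rapgefl1, H2-Bl, Abat, Gnpda1, Pbld2, Cyp2s1, Rep15, Phospho1, Gpt and Hkdc1, and the 3 negative ones are Hfe, Atg9b and Ly6d. They include transporters of dicarboxylates (Slc13a2) and sugars (Slc5a4b), a retinol dehydrogenase (Rdh7) and the iron regulator Hfe.

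**Figure D5:**
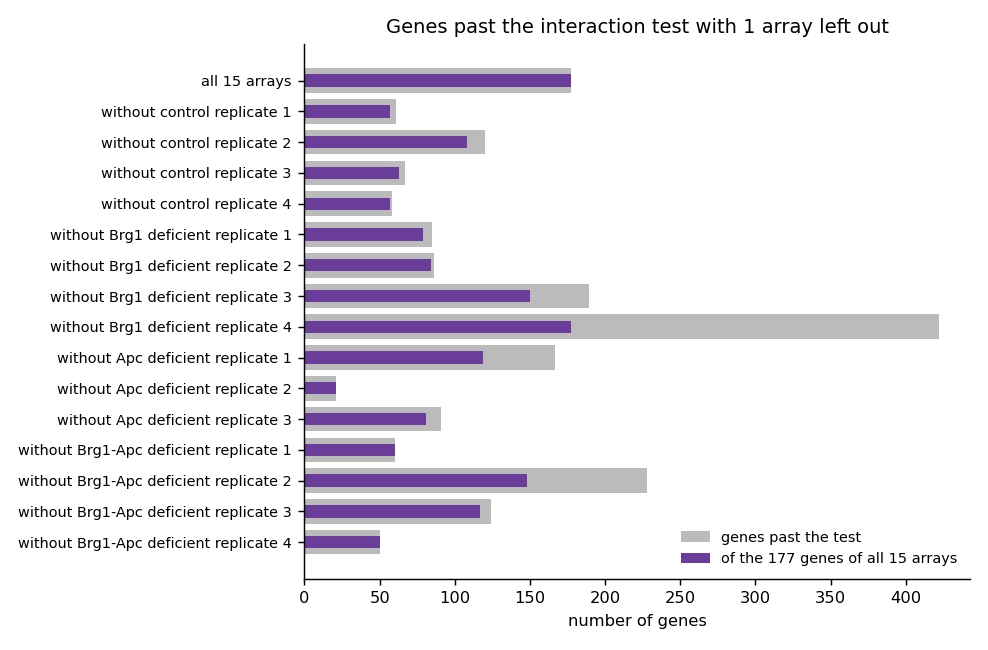
Number of genes past the interaction test with all 15 arrays and after leaving out each array in turn (grey bars), and how many of them are among the 177 genes of the full set (purple bars). The count falls to 21 without Apc deficient replicate 2 and rises to 422 without Brg1 deficient replicate 4.

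The 132 positive genes had a median interaction of 1.95 on the first slide and 2.03 on the second, and the 45 negative genes -1.87 and -1.77. The genes were chosen over the arrays of both slides, so these medians are a description and no independent check. With the slide as a block, 162 of the 177 genes still passed. The first slide alone gave 72 genes past the test. On the second slide the Apc deficient group is 1 array, so a fit to that slide alone cannot measure the spread of this group. Its counts are therefore not given. Nothing in the labels says whether replicates were separate mice handled on separate days, so the p-values measure the spread between these samples.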

How the data were processed

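Total RNA from epithelium-enriched jejunal scrapes was labelled with a TotalPrep kit and read on 1-colour Illumina bead arrays, per the labels' protocols. The deposited values are the authors' processed log2 signals for 25695 probes, without missing values, and no source used here states the normalization behind them; they were used as deposited. Groups come from the sample titles. limma 3.58.1 in R 4.3.3 was fitted to all 15 arrays with a mean per genotype, and the interaction and the 4 simple differences were taken as contrasts with two-sided tests, moderated variances and Benjamini-Hochberg adjustment over all probes at 0.05. Of the probes, 23976 have 1 gene symbol and 1719 have none, and each of 16592 genes is represented by its probe of highest mean value. The fit was tested on simulated data. Named genes are Smarca4, Apc, the 12 largest values of each sign past the test, up to 4 members past the test of each pathway list by smallest p, and the closest member of a list with none; other genes were chosen after their values were seen. The genes and lists were chosen with earlier results of these data known, and 565 of 656 genes on 30 lists were measured. Precision is limited by the number of arrays. Alternatives covered the slide and replicate blocks, each slide alone, scaling, low values, the prior, array weights, the choice of probe and each array left out.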

Additional observations from a re-analysis of the deposited data

Results flagged for a closer look

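The response to Apc loss differed with Brg1 status for 177 genes, each by the test of the interaction itself. Of those named by rule, positive log2 interactions were found for Cyp3a25 (4.62), Treh (4.41), Mme (4.30), Xpnpep2 (4.27), Nat8 (4.12), Slc28a1 (4.06), Asah2 (3.78), Naaladl1 (3.75), Slc47a1 (3.62), Slc7a8 (3.48), Slc51a (2.58), Ces2e (2.60), Mogat2 (2.35), Dgat1 (1.85) and Creb3l3 (1.69). The brush border structure list genes Espn (3.05) and Usp2 (2.72), the goblet cell genes Rep15 (2.17) and Bcas1 (1.79), the Notch genes Nrarp (1.84) and Rfng (1.45) and the tuft cell gene Il17rb (1.35) were positive as well. So were St3gal4 (4.08), Edn2 (3.94), Mertk (3.91) and Cdkn2b (1.40). Negative interactions were found for the Wnt list genes Etv4 (-2.08), Lgr5 (-1.72) and Myc (-1.97) and for Atg9b (-2.85), Cldn2 (-2.61), Ly6d (-3.09), Btc (-2.58), Tnfrsf11b (-2.31) and Rgcc (-2.2). Ifit3, of the interferon list (-3.74), and the genes Phf11d (-2.94), Spats2l (-2.25), Thg1l (-2.45), Vmn2r10 (-2.40) and Smim3 (-2.18) were negative too, the last pair at levels under background.

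Single arrays were flagged in 8 of 159 groups of 4 arrays examined, which is about the 5% that chance alone gives. The flag compares the gap to the nearest array with the range of the group, so small gaps can be flagged too. The 8 values are listed as a description only. On Brg1-Apc deficient replicate 2, St3gal4 read 8.69 and Msx1 read 9.53. Brg1-Apc deficient replicate 4 was low for Phf11d at 6.46 and for Mcm3 at 6.36. Control replicate 3 was high for Ly6d at 7.06, and control replicate 4 for Smim3 at 4.58. Brg1 deficient replicate 1 was high for Thg1l at 7.65, and Brg1 deficient replicate 4 was low for Rep15 at 9.32.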

How the results depend on the processing

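No interaction value of the 177 genes changed sign on the log2 scale in any of the 29 other settings in which its probe was still measured. The genes were chosen for large interactions on these same arrays, so the kept signs are a description and no independent check. Of 1185 values of the 41 named genes past the test, 787 stayed past it, 398 kept the sign and did not pass, and 0 turned. On the linear scale 175 of the 177 kept their sign, and 2 turned, Cdkn2b to -3.24 and Slc1a1 to -470 signal units. Leaving out each array in turn gave 23 to 595 probes, 21 to 422 genes, 17 to 280 positive and 4 to 142 negative genes, where the full set gives 225, 177, 132 and 45. Slide 1 alone, with fewer samples, gave 111 probes, 72 genes and 42 positive genes. Slide 2 alone leaves 1 Apc deficient array, so counts from a fit to it are not given. Array weights gave 549 probes and 407 genes, 298 positive and 109 negative. Raising values to the highest array median gave 343 probes and 88 negative genes. Without control replicates 1 and 4, limma left 2 probes and 2 genes, 2 positive and 0 negative. In that setting 2058 probes had an unadjusted p under 0.05, where chance alone gives about 5% of the 25695. Without Brg1-Apc deficient replicate 2 and Brg1 deficient replicate 4 it gave 762 probes and 548 genes, 383 positive and 165 negative, which include 176 of the 177. The cause of these moves was not tested. With the replicate number as a block, 212 probes and 162 genes passed, 117 positive and 45 negative, including 136 of the 177; same-numbered arrays correlated between -0.18 and 0.27 in their deviations from the group means, 8 of 21 pairs above 0.1, and 6 of 15 arrays correlated best with their own number, so the numbers were not taken to pair the samples. Quantile normalization put 67.3% of calls on the positive side, against 74.6%, and raising low values 65.1%. Probes near the background level limit what can be read. Of the 45 positive genes in which control stood apart as high, 33 have an additive level that the arrays could not show.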
